A study of Mus musculus with 2 samples.

Results

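The genes described are 10 regulators of the passage from G1 into S phase: the D-type cyclins Ccnd1, Ccnd2 and Ccnd3, the E-type cyclin Ccne1, the kinases Cdk4 and Cdk6, the CDK inhibitors Cdkn1b, Cdkn1c and Cdkn2c, and the retinoblastoma gene Rb1. They were chosen by name, and all 10 were found among the 14366 gene symbols that both deposited tables hold. The set is therefore wider than cyclins and inhibitors alone, since it also holds 2 kinases and the protein they act on.

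The cells were hematopoietic stem cells (HSC) from wildtype C57/B6 mice aged 6 to 8 weeks, sorted from the pooled bone marrow of 8 animals as lineage-negative cells with Sca-1, c-Kit and CD150 and without CD48 on the surface. Both groups were kept for 48 h in Myelocult M5300 medium with 100 ng/ml stem cell factor, 50 ng/ml thrombopoietin and 200 µg/ml Primocin, an antimicrobial mixture. The DFO group also received 10 µM deferoxamine (DFO), which binds iron, and the vehicle group sterile water. From each group 20000 cells were loaded for droplet sequencing of 3′ transcript ends, where unique molecular identifiers (UMIs) mark single molecules, which asks how iron chelation changes the transcripts of these cells. Thrombopoietin is also the main growth factor of the megakaryocyte lineage, and cells under these cytokines divide, so neither culture is a model of resting stem cells.

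D-type cyclins bind Cdk4 or Cdk6 when growth factors act on a cell. The kinase complexes phosphorylate the Rb1 protein, which otherwise holds E2F transcription factors in check, and Ccne1, itself an E2F target, then drives the start of DNA replication with its partner Cdk2. Inhibitors of the INK4 family such as Cdkn2c bind Cdk4 and Cdk6, while those of the Cip/Kip family, Cdkn1b and Cdkn1c, act mainly on the complexes of cyclin E and cyclin A. In the blood system, Cdkn1c and Cdkn1b are known for holding stem cells in quiescence, Cdk6 for the speed at which stem cells leave it, and D cyclins for the repeated genome doubling of megakaryocytes. Much of this control acts on proteins, which were not measured.

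With 1 library for each group, differences could not be checked against replicates, and p-values are not used. The tables held 8708 vehicle and 9852 DFO cells, with 260938938 and 284326017 molecules and a median of 27805.5 and 27114 UMIs per cell. The libraries shared 24 barcode sequences. Levels are molecules of a gene scaled to a total of 1e6 molecules of the same cells (CPM), and a difference is log2 of the ratio of CPM + 1. Intervals are exact 95% Poisson or conditional intervals for levels and their ratios, the latter without the added 1, and exact 95% Clopper-Pearson intervals for shares of cells. All of them cover counting error only. A CPM is relative to all RNA of the cells summed, and counts of 3′ ends are not per length, so levels are compared between cells and not between genes. No cell type of these cultures is known to lack the 10 genes, so what free RNA in the droplets adds to a detected share was not measured.

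Of the marker lists, 14 of 21 HSC markers reached 10 CPM, and the HSC list summed to 2140 CPM in vehicle cells and 2255 CPM in DFO. Megakaryocyte markers were also present, at 2213 CPM summed in vehicle and 1181 CPM in DFO, with 8 of the 10 at or above 10 CPM lower in DFO by 0.25 or more on the log2 scale. Erythroid markers summed to 924.1 and 888.2 CPM and neutrophil-monocyte markers to 198.3 and 181.3 CPM, while the mast or basophil, lymphoid, eosinophil and macrophage or dendritic lists were each under 11 CPM. Cells of both sexes were present, with 4751 female and 2767 male cells in vehicle and 5251 and 3266 in DFO.

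The D cyclin genes lie on chromosome 7 from 144929931 to 144939925 (Ccnd1, minus strand), on chromosome 6 from 127125162 to 127152193 (Ccnd2, minus strand) and on chromosome 17 from 47505051 to 47599691 (Ccnd3, plus strand), in mm10 with the GENCODE M21 annotation. Ccne1 lies on chromosome 7 from 38097984 to 38107534 (minus strand). Cdk6 spans chromosome 5 from 3341485 to 3531008 and Cdk4 chromosome 10 from 127063534 to 127067920, both on the plus strand. The inhibitor genes are at chromosome 6 from 134920401 to 134925513 (Cdkn1b, plus strand), chromosome 7 from 143458339 to 143461050 (Cdkn1c, minus strand) and chromosome 4 from 109660876 to 109667189 (Cdkn2c, minus strand), and Rb1 is at chromosome 14 from 73183673 to 73325822 (minus strand). In the last 2000 bases, where 3′ reads fall, 6 of the 10 genes overlap a gene on the other strand: Ccnd1, Ccnd2, Ccnd3, Cdk4, Cdkn1c and Rb1. Whether the authors counted by strand was not given in the sources used here, and the values of these 6 genes are uncertain to that extent. Rb1 also overlaps Gm17233 there on its own strand, which counting by strand would not set apart.

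For 6 of the 10 genes a RefSeq promoter sequence was used here, and the 250 bases before the start of transcription were searched on both strands for CACGTG, the word bound by Myc and related factors. It is held by 6.02% of 32851 windows of that length. The Cdk4 window is shown because it was the member window with the most matches, 4, which begin 172, 118, 98 and 11 bases before the start. The window is chr10:127063285-127063534 on the plus strand of GRCm38.p6, with the matches in capitals.

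Cdk4: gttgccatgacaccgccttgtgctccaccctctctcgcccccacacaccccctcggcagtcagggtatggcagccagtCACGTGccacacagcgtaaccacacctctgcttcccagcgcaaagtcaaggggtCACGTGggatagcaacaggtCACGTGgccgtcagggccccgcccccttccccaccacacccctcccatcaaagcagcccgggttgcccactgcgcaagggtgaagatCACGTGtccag

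Cdk6 held 1 match, 220 bases before a start, and the other 4 members with a sequence held none. Words of E2F sites (TTTCCCGC, TTTGGCGC, TTTCGCGC and TTTGCCGC), of the CHR element (TTTGAA and TTCGAA) and of GATA sites (AGATAA, or TGATAA, or AGATAG, or TGATAG), held by 1.86%, 17.1% and 26.5% of windows, did not occur in the windows of the members. A match is a description of letters and not a measured binding site.

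The first comparison set the DFO library against the vehicle library over all cells. All 10 genes differed by less than 0.20 on the log2 scale. Cdk6, Ccnd3 and Rb1 were lower in DFO, Ccnd1 and Cdk4 were higher, and Ccnd2 was level. Of the 9 genes that reached 10 CPM in either library, 0 differed by 0.25 or more, against 1.24% higher and 2.31% lower among the 7476 genes at that level. The median difference was 0.0064 over these 9 and 0.021 over all 7476 genes.

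Ccnd1, the D cyclin most used outside the blood system, was at 54.6 CPM (53.7 to 55.5) in vehicle and 60.1 CPM (59.2 to 61.0) in DFO, a difference of 0.14 (0.11 to 0.17). Ccnd2 was at 265.2 CPM (263.2 to 267.2) and 266.4 CPM (264.5 to 268.3), a difference of 0.0064 (-0.0085 to 0.021). Ccnd3 was at 162.3 CPM (160.8 to 163.9) and 142.5 CPM (141.1 to 143.8), a difference of -0.19 (-0.21 to -0.17). The 3 D cyclins thus stood on different sides of no change, with intervals of Ccnd1 and Ccnd3 that do not reach 0. In both libraries most cells held molecules of more than 1 D cyclin. With each cell thinned to 10000 UMIs, all 3 were detected in 25.7% of vehicle and 25.8% of DFO cells, exactly 2 in 51.7% and 50.7%, and none in 2.24% and 2.23%.

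Cdk6 was the member with the lowest difference, -0.19 (-0.21 to -0.18), with 293.4 CPM (291.3 to 295.5) in the vehicle and 256.4 CPM (254.5 to 258.2) in the DFO library. It ranked at percentile 4.12 of the 7476 genes, beside Ccnd3 at 4.44 and Rb1 at 5.42. Cdk4, its close relative, was at 603.6 CPM (600.6 to 606.6) and 639.5 CPM (636.5 to 642.4), a difference of 0.083 (0.074 to 0.093). Both kinases partner the same D cyclins, and their differences had opposite signs. Ccne1 was at 17.8 CPM (17.3 to 18.4) and 18.8 CPM (18.3 to 19.3), a difference of 0.072 (0.019 to 0.13).

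The 3 inhibitors differed by less than 0.09 in either direction. Cdkn1b, which binds and restrains Cdk2 complexes, was at 32.4 CPM (31.7 to 33.1) in vehicle and 30.4 CPM (29.8 to 31.1) in DFO, a difference of -0.088 (-0.13 to -0.047). Cdkn1c was the scarcest of the 10 by count, with 1002 and 1038 molecules, or 3.84 CPM (3.61 to 4.09) and 3.65 CPM (3.43 to 3.88), and the interval of its difference included 0 (-0.20 to 0.054). Cdkn2c was at 17.9 CPM (17.4 to 18.4) and 18.7 CPM (18.2 to 19.2), a difference of 0.060 (0.0063 to 0.12). Of the 3, Cdkn1b was thus lower and Cdkn2c higher in DFO over all cells, beyond counting error. For Cdkn2c the difference was 0.11 (0.034 to 0.19) in female cells and -0.032 (-0.13 to 0.066) in male cells. Rb1 was at 17.1 CPM (16.6 to 17.6) and 15.1 CPM (14.6 to 15.5), a difference of -0.17 (-0.24 to -0.12), which was -0.25 over cells thinned to 10000 UMIs.

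**Figure D1:**
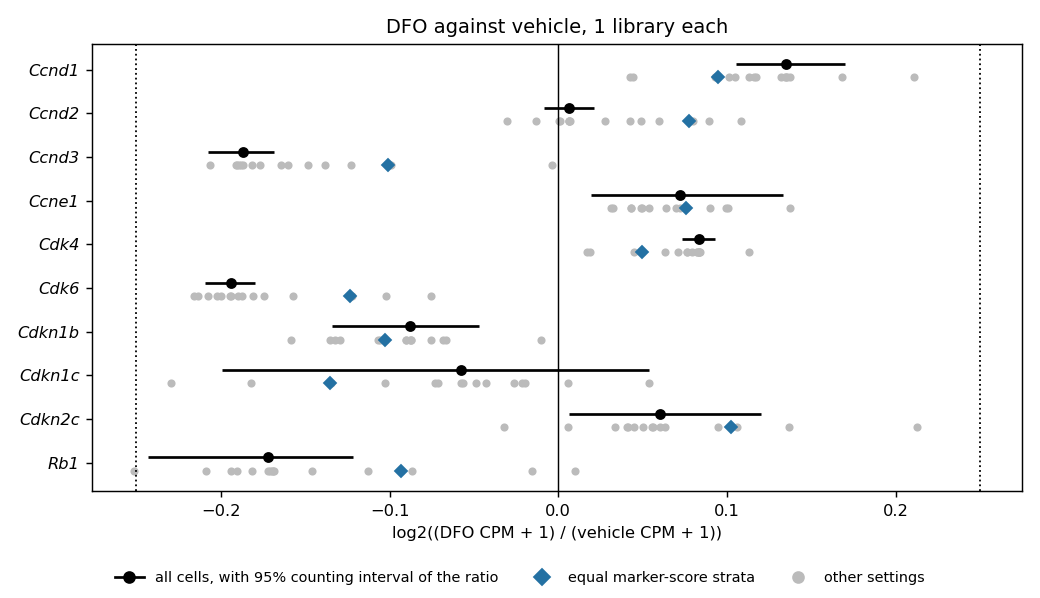
Difference of each gene between the DFO and vehicle libraries, in log2 of the ratio of CPM + 1, for all cells (black, with the 95% counting interval), with equal shares of marker-score strata (blue) and under the other settings (grey); the dotted lines mark 0.25 in each direction. No black interval reaches a dotted line, and the points of Cdk6, Ccnd3 and Rb1 lie nearer 0 with equal strata.

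Shares of cells with a molecule followed the levels. Over cells thinned to 10000 UMIs, Rb1 was detected in 15.4% of vehicle and 13.0% of DFO cells, Ccnd3 in 76.8% and 73.0%, and Cdk6 in 86.6% and 84.0%. Ccnd1 was detected in 37.5% and 39.5%, and Cdkn1c in 3.78% and 3.65%. Without thinning the shares were higher, for example 62.0% and 64.8% for Ccnd1 and 9.63% and 9.19% for Cdkn1c.

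Among 39 other genes of the G1 pathway, 33 reached 10 CPM. None of them was higher by 0.25 or more and 1 was lower, beside the 1.24% and 2.31% of all genes given above. That gene was Cdkn2d, an INK4 inhibitor like Cdkn2c, at 69.7 CPM (68.7 to 70.7) in vehicle and 57.8 CPM (56.9 to 58.7) in DFO, a difference of -0.27. Of the 33, 23 lay above 0 and 10 below, with a median of 0.051.

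The second comparison ordered the cells of both libraries together by a score of 15 megakaryocyte markers, 14 of them in the tables and none of them a member, and split them into 3 equal groups (tertiles). Each library was then described apart, over the 8357 vehicle and 9419 DFO cells with at least 10000 UMIs. Ccnd2, Ccnd3, Cdk6 and Rb1 were higher in the highest than in the lowest tertile by 0.5 or more in both libraries, and no member was lower by that much at 10 CPM or more. Of 7528 genes, 4.56% were higher and 4% lower by that rule. Ccnd1, Cdk4 and Cdkn1c lay the other way.

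Ccnd3 stood at 125.7, 134.4 and 205.9 CPM in the lowest, middle and highest tertile of vehicle cells, and at 115.4, 134.1 and 187.0 CPM in DFO, differences of 0.71 and 0.69 between highest and lowest. Ccnd2 stood at 220.5, 220.3 and 324.4 CPM in vehicle cells and 234.6, 237.6 and 338.1 CPM in DFO, differences of 0.55 and 0.53. Both were highest in the highest tertile. Between the lowest and middle tertile Ccnd2 was nearly level, while the intervals of Ccnd3 did not overlap in either library. Ccnd1 had the reverse order, with 63.2, 57.5 and 46.4 CPM in vehicle cells and 65.1, 59.3 and 53.8 CPM in DFO, differences of -0.44 and -0.27. As a share of all D cyclin molecules, Ccnd1 made up 15.4%, 13.9% and 8.04% across the tertiles in vehicle and 15.7%, 13.8% and 9.30% in DFO.

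Cdk6 stood at 222.0, 259.8 and 357.2 CPM across the tertiles in vehicle and 210.6, 242.0 and 320.2 CPM in DFO, differences of 0.68 and 0.60. Cdk4 stood at 675.6, 640.4 and 533.3 CPM in vehicle cells and 684.5, 648.0 and 576.7 CPM in DFO, differences of -0.34 and -0.25. The kinases thus had opposite gradients, so that Cdk6 made up 24.7% of the molecules of both in the lowest tertile and 40.1% in the highest in vehicle, and 23.5% and 35.7% in DFO.

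Rb1 stood at 12.7, 14.2 and 21.8 CPM in vehicle cells and 12.6, 14.3 and 18.9 CPM in DFO, differences of 0.73 and 0.56. With an added 10 CPM in place of 1, which weighs on so low a gene, these were 0.49 and 0.36, and 3 members instead of 4 passed. Cdkn2c stood at 14.4, 16.8 and 20.9 CPM in vehicle cells and 16.8, 18.6 and 21.0 CPM in DFO, and only the vehicle difference, 0.51, exceeded 0.5. Cdkn1c lay under 10 CPM throughout, at 4.78, 4.97 and 2.43 CPM in vehicle cells and 4.09, 4.09 and 2.56 CPM in DFO. Ccne1 and Cdkn1b differed by less than 0.14 in either library.

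**Figure D2:**
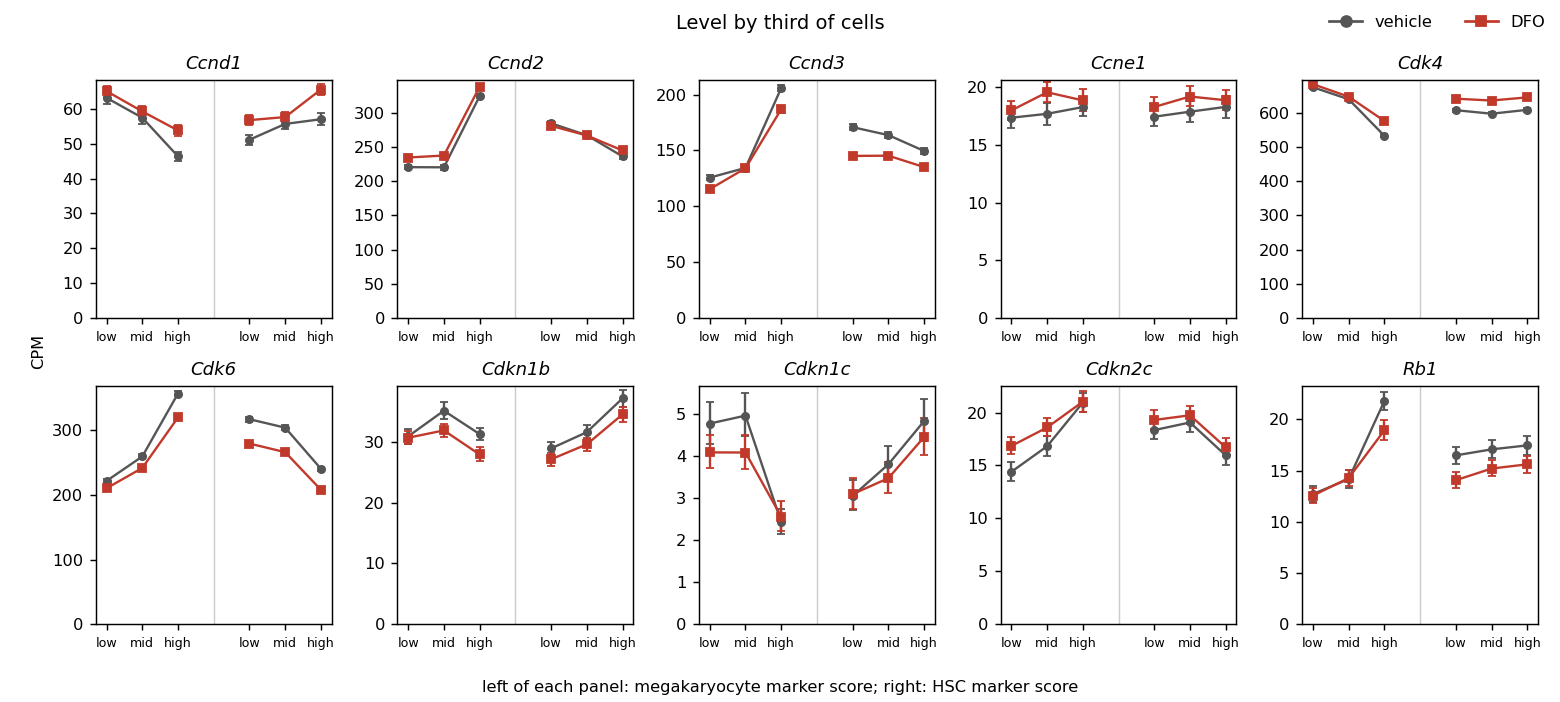
CPM of each gene (y axis) in the lowest, middle and highest tertile of cells by megakaryocyte marker score (left of each panel) and HSC marker score (right), for vehicle (grey circles) and DFO (red squares), with 95% Poisson intervals. Ccnd2, Ccnd3, Cdk6 and Rb1 are highest in the highest megakaryocyte tertile, where Ccnd1, Cdk4 and Cdkn1c are lowest.

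The tertiles differed in other ways that moved with these values. Of the lowest and highest tertile, 35.2% and 27.5% were called S phase in vehicle, and 34.6% and 33.4% in DFO. Neutrophil-monocyte markers summed to 306.2 and 114.0 CPM in vehicle and 250.5 and 99.2 CPM in DFO, and erythroid markers to 1057 and 732.1 CPM and to 936.4 and 752.3 CPM. Median UMIs were 28897 and 28806 in vehicle and 28066 and 27756 in DFO. Their part in the gradients was not tested. Among the fewer cells called G1, only Cdk6 passed 0.5 in both libraries, beside 3.45% of genes higher and 3.07% lower. It stood at 180.3, 239.9 and 369.9 CPM in vehicle cells and 172.3, 201.3 and 310.9 CPM in DFO, differences of 1.03 and 0.85. In those cells Ccnd3 differed by 0.43 and 0.48, Ccnd2 by 0.13 and -0.021, and Rb1 by 0.17 and -0.16. Ccnd1 differed by 0.025 (-0.24 to 0.29) and -0.23 (-0.56 to 0.087), so its reverse order was not seen in vehicle cells called G1. Cdk4 differed by -0.35 and -0.31. Cdkn1b differed by 0.23 (-0.055 to 0.54) in vehicle and 0.53 (0.14 to 0.94) in DFO.

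The megakaryocyte score also bears on the comparison of DFO with vehicle, since 40.2% of vehicle and 27.2% of DFO cells lay in its highest tertile. Within the tertiles Cdk6 remained lower in DFO in 3 of 3, by -0.075 in the lowest, -0.10 in the middle and -0.16 in the highest. Ccnd3 was lower by -0.12, -0.0035 and -0.14. Rb1 differed by -0.016 and 0.0097 in the lowest and middle tertile, with intervals that include 0, and by -0.19 (-0.30 to -0.11) in the highest. Ccnd2, level over all cells, was higher in DFO within all 3 tertiles, by 0.089, 0.11 and 0.060. Ccnd1 differed by 0.043 and 0.044 in the lowest and middle tertile, with intervals that include 0. In the highest it differed by 0.21 (0.16 to 0.27). Cdk4 differed by 0.019, 0.017 and 0.11, and its interval in the middle tertile includes 0. When the 9 strata of both marker scores were given equal shares in both libraries, Cdk6 differed by -0.12, Ccnd3 by -0.10, Rb1 by -0.093, Ccnd1 by 0.094 and Ccnd2 by 0.077. The tertiles are not matched in marker level between the libraries. In the highest tertile the megakaryocyte list summed to 4436 CPM in vehicle and 2845 CPM in DFO. In the middle tertile it summed to 782.5 and 702.4 CPM. What this adds to the differences within tertiles and with equal shares was not tested.

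The third comparison did the same with a score of 21 HSC markers. Cdk6 was lower and Cdkn1b higher in cells with more HSC transcripts, in both libraries. No member at 10 CPM or more passed 0.5 in both, beside 1.92% of 7465 genes higher and 0.362% lower. Cdk6 stood at 317.4, 304.4 and 240.8 CPM from the lowest to the highest tertile in vehicle cells and at 279.8, 266.5 and 208.2 CPM in DFO, differences of -0.40 and -0.42. With a plain sum of marker molecules as the score, which gives abundant markers more weight, these were -0.18 and -0.14.

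Cdkn1b stood at 28.9, 31.6 and 37.1 CPM in vehicle cells and 27.1, 29.6 and 34.5 CPM in DFO, differences of 0.35 and 0.34, which were 0.21 and 0.19 with the plain sum. Cdkn1c stood at 3.05, 3.81 and 4.84 CPM and at 3.10, 3.48 and 4.46 CPM. Both Cip/Kip inhibitors therefore had their highest level in the highest HSC tertile of each library. Ccnd2 lay lower there by -0.27 and -0.20, Ccnd3 by -0.19 and -0.10, and Cdkn2c by -0.19 and -0.20. Cdk4 was level, with 0.0025 and 0.0088. Ccnd1 differed by 0.15 and 0.20, but by -0.082 and -0.15 with the plain sum, and Rb1 by 0.078 and 0.14, but by -0.12 in both with the plain sum. No direction is given for these genes.

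These tertiles also differed in the share of cells called G1, which was 3.22%, 7.05% and 14.5% in vehicle and 2.96%, 3.47% and 9.13% in DFO. In vehicle the megakaryocyte list summed to 2595 CPM in the lowest and 1569 CPM in the highest HSC tertile, the erythroid list to 703.4 and 1268 CPM, and median UMIs were 30222 and 26044. In DFO these were 1324 and 993.8 CPM, 728.1 and 1121 CPM, and 28652 and 25747 UMIs. What these add to the differences was not tested, but Cdk6 could be followed over both scores at once. With the lowest megakaryocyte and highest HSC tertile, Cdk6 was at 161.2 CPM (156.4 to 166.1) in vehicle and 162.2 CPM (157.9 to 166.5) in DFO, the lowest of the 9 strata in each. Its highest levels were 366.5 CPM (360.4 to 372.5) in vehicle and 332.8 CPM (326.1 to 339.6) in DFO, both with the highest megakaryocyte tertile. Cdk6 was lower in DFO in the other 8 strata, and a difference between strata was not tested.

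**Figure D3:**
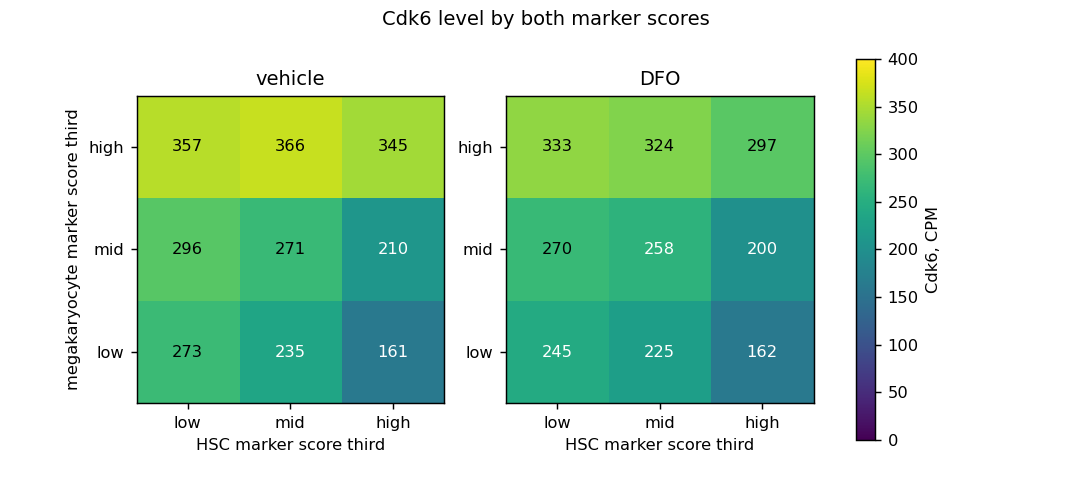
Cdk6 level in CPM (colour and printed number) in 9 strata of cells by tertile of HSC marker score (x axis) and of megakaryocyte marker score (y axis), for vehicle (left) and DFO (right). Within each library the level is lowest at lower right, with 161.2 and 162.2 CPM, and high along the upper row.

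Among the cells called G1, tertiles of the HSC score held 225, 240 and 218 vehicle and 166, 151 and 174 DFO cells. Cdk6 stood at 319.6, 304.2 and 181.0 CPM in vehicle cells and 277.7, 234.5 and 127.8 CPM in DFO, differences of -0.82 and -1.11, and it was the only member at 10 CPM or more past 0.5 in both, beside 6.56% of genes higher and 1.69% lower. Ccnd1 stood at 48.9, 54.4 and 65.5 CPM in vehicle cells and 57.6, 59.0 and 83.6 CPM in DFO. Cdkn1b stood at 39.0, 48.8 and 60.5 CPM in vehicle but at 37.1, 44.6 and 41.1 CPM in DFO. The Cdkn1b gradient of these cells, 0.62 in vehicle, was 0.15 in DFO, and the gap between them was not tested. These tertiles also differed in lineage and cycle transcripts. From lowest to highest in vehicle, the megakaryocyte list went from 2030 to 1065 CPM and the erythroid list from 981.0 to 1936 CPM. The S phase list went from 3153 to 2386 CPM and the G2/M list from 3248 to 2416 CPM. In DFO these were 995.3 to 739.1, 950.8 to 1818, 3481 to 2551 and 3649 to 2835 CPM. What they add to the gradients of the members was not tested.

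Cdkn1c, the inhibitor best known from quiescent stem cells, gave 8, 23 and 31 molecules across the HSC tertiles of G1-called vehicle cells and 9, 12 and 31 in DFO. These are 1.89, 5.15 and 8.19 CPM and 2.93, 4.43 and 10.5 CPM. The intervals of the lowest and highest tertile did not overlap in either library, at 0.82 to 3.73 against 5.57 to 11.6 CPM in vehicle cells and 1.34 to 5.56 against 7.16 to 15.0 CPM in DFO. In vehicle the gene lies under 10 CPM in all 3 tertiles, so it was not counted among the members that passed in both libraries. Cdkn2c went the other way, with 10.9, 8.74 and 5.81 CPM in vehicle cells and 8.78, 9.96 and 3.40 CPM in DFO. Its differences were -0.80 (-1.71 to -0.14) and -1.15 (-2.58 to -0.28), on 10 to 46 molecules per tertile. In DFO Cdkn2c lay under 10 CPM in all 3 tertiles, so it was not counted either.

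**Figure D4:**
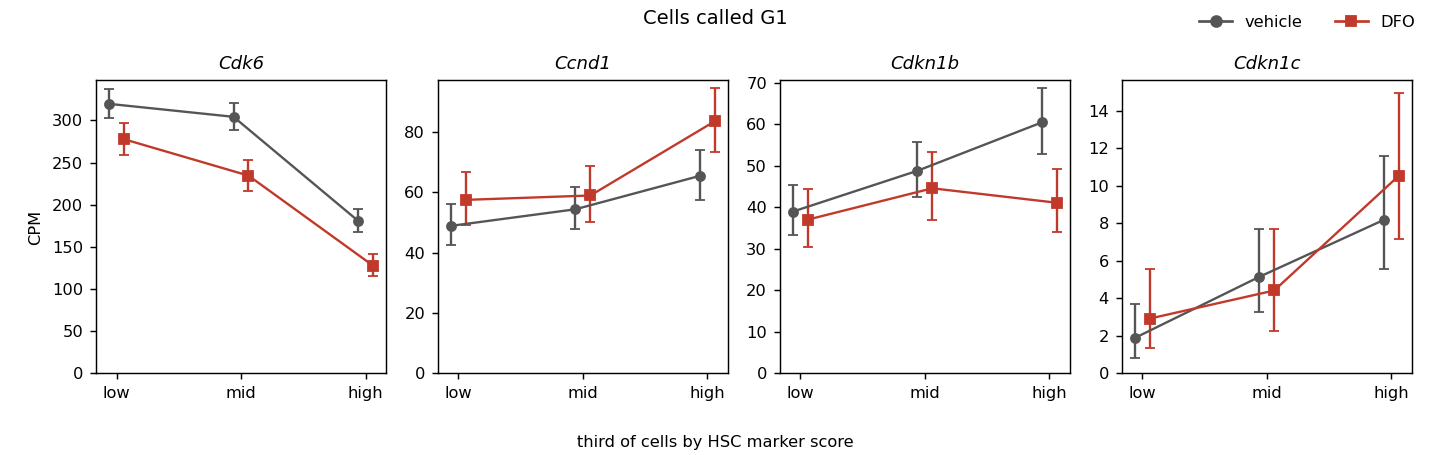
CPM (y axis) of Cdk6, Ccnd1, Cdkn1b and Cdkn1c in cells called G1, by tertile of HSC marker score (x axis), for vehicle (grey circles) and DFO (red squares), with 95% Poisson intervals. Cdk6 is lowest and Cdkn1c highest in the highest tertile of both libraries, and Cdkn1b is highest there in vehicle only.

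Across single cells, Cdk6 had the strongest correlations of the 10 genes with markers, given here as descriptions over 8357 vehicle and 9419 DFO cells that share a library and were thinned to one depth. With Ly6a, which encodes the Sca-1 antigen, Pearson's r was -0.36 in vehicle and -0.34 in DFO, and with Hlf, a stem cell transcription factor, -0.25 and -0.20. With Pf4, which encodes platelet factor 4, it was 0.27 and 0.23, and with Itga2b, an integrin subunit of platelets, 0.27 and 0.23. Gata2, a transcription factor listed with the HSC markers, went against the rest of its list at 0.16 and 0.16. Of 21 HSC markers 7 were at -0.1 or lower in both libraries and 1 at 0.1 or higher, and of 14 megakaryocyte markers 6 were at 0.1 or higher. Ccnd3 and Ccnd2 each had 5 of 14 megakaryocyte markers at 0.1 or higher in both, and Cdk4 had 3 at -0.1 or lower. Among the 45 pairs of members, the strongest was Ccnd2 with Ccnd3 in vehicle, at 0.14 (0.076 in DFO), and Ccnd2 with Cdk6 followed at 0.12 and 0.10.

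The fourth comparison followed the genes over the cell cycle. Each cell was scored on 40 S phase and 51 G2/M genes, none of them a member, and called S or G2M by the higher score or G1 where both were below 0. By these calls 8.17% of vehicle and 5.21% of DFO cells were G1, 31.6% and 34.4% S, and 60.2% and 60.3% G2M. Such calls are ranges of a score and not measured DNA content. Ccne1, Cdkn1b and Cdkn2c varied most over the cycle, in the same way in both libraries, while Ccnd2, Ccnd3, Cdk4, Cdk6 and Rb1 differed by less than 0.35 between any 2 calls. Ccnd1 was higher in S than in G2M, by 0.37 in vehicle and 0.24 in DFO. Cdkn1c was highest in G1 and lowest in G2M in both libraries, by 0.37 in vehicle and 0.71 in DFO. Its G1 calls held only 62 and 52 molecules.

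Ccne1 was at 11.8, 34.8 and 11.3 CPM in cells called G1, S and G2M in vehicle cells and at 11.8, 35.9 and 11.4 CPM in DFO. S phase cells thus stood above G2M cells by 1.54 and 1.58, and cells called G1 were as low as G2M cells. Only Ccne1 among the members was higher in S than in G2M by 0.5 or more, beside 1.81% of genes in vehicle and 1.46% in DFO. Tertiles of summed S phase and G2/M transcripts gave Ccne1 levels of 24.2, 24.5 and 6.46 CPM in vehicle cells. The DFO levels were 26.6, 26.4 and 7.80 CPM. The highest tertile was nearly all cells called G2M, with 2.65% called S in vehicle and 3.96% in DFO. Its low Ccne1 level thus overlaps that of the G2M calls.

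Cdkn1b had the opposite course. It was at 49.0, 22.2 and 35.2 CPM in G1, S and G2M calls in vehicle cells and at 40.8, 22.5 and 33.4 CPM in DFO, lower in S than in G2M by -0.64 and -0.55, beside 2.77% and 2.58% of genes lower by 0.5 or more. Cdkn2c was at 8.57, 15.0 and 19.7 CPM in vehicle cells and 7.33, 14.9 and 20.8 CPM in DFO. Its G1 calls were below its G2M calls by -1.11 and -1.39, beside 11% and 10.2% of genes lower and 9.05% and 8.63% higher by 0.5 or more. The 2 inhibitor genes thus had their highest levels in different calls, Cdkn1b in G1 and Cdkn2c in G2M.

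By tertile of summed S phase and G2/M transcripts, 2 members passed 0.5 in both libraries, beside 3.62% of 7496 genes higher and 1.39% lower. Ccne1 was lower in the highest tertile, by -1.76 and -1.65. Cdkn2c was higher, by 0.87 and 0.88, from 12.4 to 23.3 CPM in vehicle cells and 12.4 to 23.7 CPM in DFO. These tertiles mainly rank G2/M transcripts. In vehicle the G2/M list rose from 4965 CPM in the lowest to 13855 CPM in the highest tertile. The S phase list fell there from 4550 to 3397 CPM. For DFO the G2/M list went from 5080 to 13556 CPM and the S phase list from 4824 to 3718 CPM. The highest tertile held 0% G1 calls in both libraries, with 2.65% and 3.96% called S. The Ccne1 and Cdkn2c differences thus overlap the G2M contrasts above and are not separate results. Median UMIs per cell were 22926 in the lowest and 35196 in the highest tertile of vehicle, 22163 and 33461 in DFO, and CPM is relative to that total.

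Cells were also placed in 8 sectors of 45 degrees in the plane of both scores, a division chosen after seeing the data. Ccne1 peaked at 37.0 CPM in vehicle where the S phase score was high, and at 35.2 CPM in DFO in the sector next to it, and was lowest at 4.81 and 5.14 CPM with a high G2/M and low S phase score, a ratio of 7.69 and 6.86. Cdkn1b was lowest where the S phase score was high and the G2/M score low, at 21.3 and 21.0 CPM, in the sector where Ccne1 peaked in DFO. Its highest level was 42.6 CPM in vehicle with both scores low and 36.3 CPM in DFO with a high G2/M score. Cdkn2c was lowest with both scores low, at 9.60 and 8.84 CPM, and highest with a high G2/M score, at 22.4 and 23.9 CPM. For the D cyclins the range was narrow, a ratio of 1.17 to 1.36 between highest and lowest sector, and Ccnd2 was highest, at 302.1 and 306.0 CPM, in the sector where megakaryocyte markers also were.

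**Figure D5:**
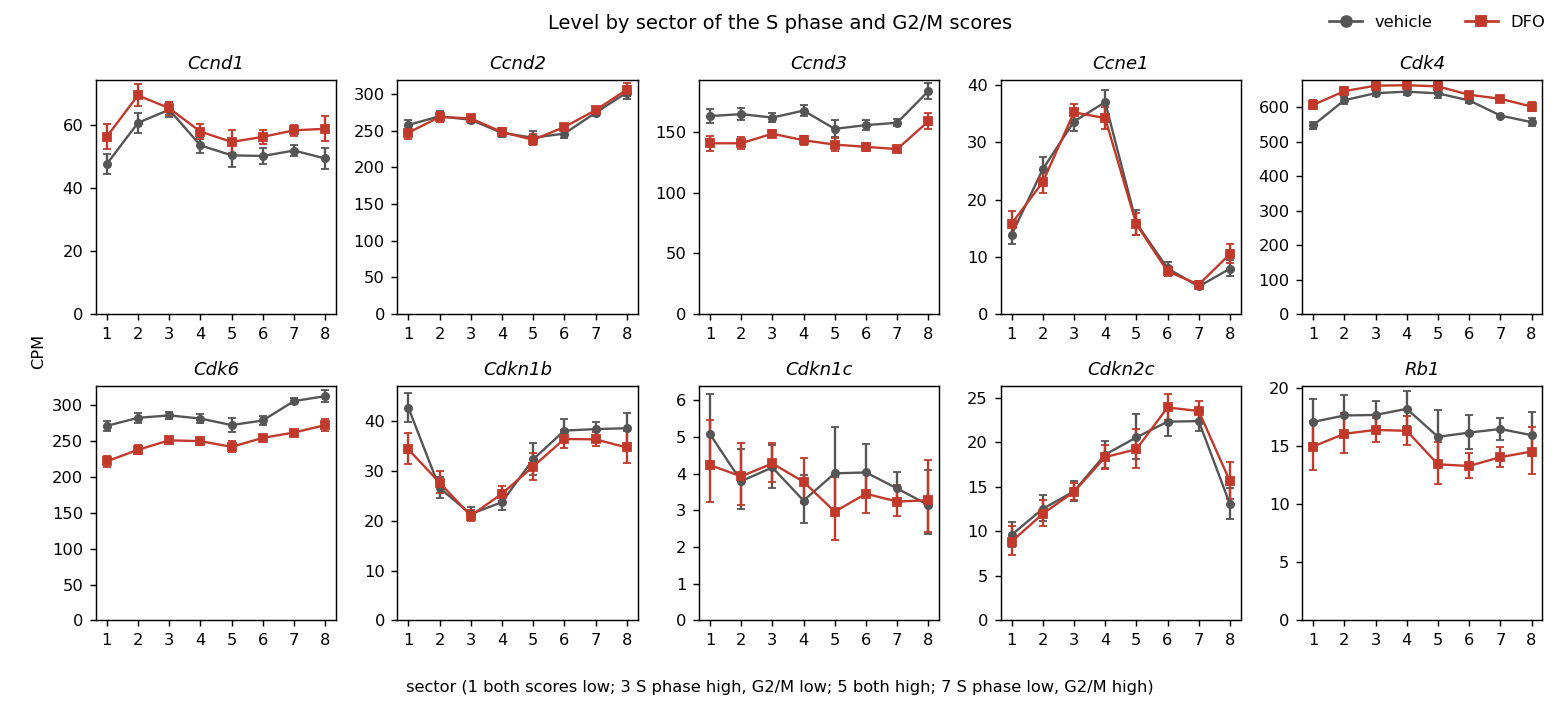
CPM of each gene (y axis) in 8 sectors of cells by S phase and G2/M score (x axis), for vehicle (grey circles) and DFO (red squares), with 95% Poisson intervals. Ccne1 peaks in sectors 3 and 4, where Cdkn1b is low, and Cdkn2c is high in sectors 6 and 7.

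DFO was set against vehicle within each call too. Cdk6 was lower in DFO in 3 of 3 calls, by -0.35 (-0.43 to -0.27) in G1, from 272.1 to 213.8 CPM, and by -0.19 in S and -0.20 in G2M. In cells called G1, Cdkn1b was at 49.0 CPM in vehicle cells and 40.8 CPM in DFO, a difference of -0.26 (-0.46 to -0.075), and Ccnd1 at 55.9 and 66.8 CPM, one of 0.25 (0.095 to 0.42). In S calls Cdkn1b differed by 0.015 (-0.080 to 0.11). Cdkn2c differed by -0.20 in G1 and -0.010 in S, with intervals that include 0, and by 0.078 (0.016 to 0.15) in G2M. Ccne1 differed by 0.0023 in G1, 0.045 in S and 0.0047 in G2M, all with intervals that include 0. Within tertiles of summed S phase and G2/M transcripts it was higher in DFO in 3 of 3, by 0.13 (0.040 to 0.23), 0.10 (0.024 to 0.19) and 0.24 (0.12 to 0.42). Cells called S made up 53.4%, 33.7% and 2.65% of these tertiles in vehicle, from lowest to highest, and 62.6%, 41.8% and 3.96% in DFO. These tertiles are thus not matched in cycle state between the libraries, and what the S share adds was not tested. The G1 calls were 683 vehicle and 491 DFO cells, and how the marker scores of these cells add to the differences was not tested.

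Over 51 strata of marker tertile by call in both libraries, the genes whose log2 level was most like that of a member were ranked by Pearson's r among 7290 genes at 10 CPM or more, as a description. For Ccne1 they were Ccne2, the other E-type cyclin, at 0.91, followed by Mcm5 and Chaf1b at 0.91 each, both of which belong to the S phase list that set the calls. For Cdk6 they were Nkg7 at 0.95, Etfb at 0.93 and Slc22a3 at 0.91. For Ccnd3 they included Unc119 at 0.96 and Mt1 at 0.95, and for Ccnd2 they were Rap1b at 0.84, Rabgap1l at 0.82 and Tmsb4x at 0.82. For Ccnd1, Nefh was at 0.80, Hook1 at 0.76 and Sox12 at 0.76.

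For Cdk4 the most alike were Hint1 at 0.95, Tmem238 at 0.95 and Phgdh, an enzyme of serine synthesis, at 0.94. Those of Cdkn2c included Ndc1 at 0.92 and Cep192 at 0.90, and Cdkn1b was followed by Chd2 at 0.88, Cnot6l at 0.88 and Gtpbp2 at 0.87. For Rb1, Med12l and Sord were at 0.79 and Tpm4 at 0.76, and for Cdkn1c, Cers5 was at 0.81, Rock2 at 0.78 and Paip1 at 0.77. The ranks of scarce genes such as Cdkn1c carry more counting error than those of abundant ones such as Cdk4.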

How the data were processed

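The authors deposited 1 table per library, with gene symbols in rows, cell barcodes in columns and natural log values, as the values themselves show. Back-transformed, the values of a cell sum to at most 27408, and all 44114455 vehicle and 49560434 DFO nonzero values are whole multiples of what 1 molecule is worth, within 0.05, so molecules were recovered. Per the submitters' processing notes, FastQC 0.11.9, Trim Galore 0.6.5, Cell Ranger 3.0.2 and mm10 were used. The cell filter and the handling of strand and doublets were not given in the sources used here.

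Phases were called with scanpy 1.11.5 (anndata 0.12.19), and all else was computed in Python 3.11.15 with pandas 2.3.3, scipy 1.17.1, numpy 2.4.6 and matplotlib 3.10.9. Molecules were summed per library or class of cells and scaled to CPM. Cells under 10000 UMIs (351 vehicle, 433 DFO) were left out of thinned shares, scores and classes, and scores were the mean z-score of a list over thinned cells. A gene was counted at 10 CPM or more, past 0.25 between libraries or 0.5 between classes. With 1 library per group no test was run. The steps were tested on simulated data. No doublets were called, and an alternative left out cells with molecules of both sexes (5 or more Xist and 2 or more Y-linked) and the 5% with most UMIs. Sequences are from RefSeq, GRCm38.p6, and positions from GENCODE M21.

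The text names the 10 members, genes of a list of 39 other G1 pathway genes past 0.25, and for each member the 3 genes most like it over strata, of which some are not reported here. Members and lists were chosen with earlier results of these data known. The alternatives changed scaling, pseudocount, cell filter, depth, sex, cell makeup, score, classes and minimum level. The sectors, the tertiles as strata and the strata that add phase calls were chosen after seeing the data.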

Additional observations from a re-analysis of the deposited data

Results flagged for a closer look

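Ccnd2 differed between DFO and vehicle in opposite directions in the 2 sexes. In female cells it was at 267.7 CPM with vehicle and 262.1 CPM with DFO, a difference of -0.030 (-0.051 to -0.010), and in male cells at 255.4 and 264.3 CPM, a difference of 0.049 (0.023 to 0.076). The difference between the sexes was not tested, since each sex has 1 library per group.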

How the results depend on the processing

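No paired analysis was possible because each group has 1 library and the labels give no replicate numbers. Between DFO and vehicle, 1 gene instead of 0 passed 0.25 over thinned cells (Rb1, -0.25), and the count was 0 under the other 15 alternatives. Restricting to cells called G1 left 1 gene instead of 4 past 0.5 for the megakaryocyte score (Cdk6) and turned 2 DFO differences, of Ccnd2 to -0.021 and of Rb1 to -0.16. For the HSC score, 1 gene instead of 0 passed with 5 groups of cells in place of 3 and 1 among cells called G1, Cdk6 in both cases. The cause was not tested. Of the single values, 105 of 160 between DFO and vehicle, 57 of 100 for the megakaryocyte score, 54 of 100 for the HSC score and 66 of 100 for proliferation moved by less than the counting interval, and no other called value changed sign. The 20 shares of cells were all higher without thinning. Depth limits Cdkn1c, which is under 10 CPM in both libraries over all cells. Free RNA, doublets and variation between cultures were not measured.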
